A study of Mus musculus with 14 samples.

Results

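The 10 genes *Gata4*, *Gata6*, *Sox7*, *Hnf4a*, *Dab2*, *Cubn*, *Amn*, *Afp*, *Ttr* and *Lama1* were followed as markers of primitive and visceral endoderm, out of 23298 genes in the expression table. They were chosen by name as known markers, with earlier results of these data known. RNA was sequenced from 14 undifferentiated mouse embryonic stem (ES) cell lines, each from a separate F1 hybrid blastocyst of C57BL/6J (B) and CAST/EiJ (C) mice, with the maternal strain written first. There were 3 XX and 3 XY lines of the BC cross, 2 XO lines of the BC cross, and 3 XX and 3 XY lines of the CB cross. All lines were grown in serum with leukemia inhibitory factor on mouse embryonic fibroblast (MEF) feeders, which were depleted before RNA was isolated. A line stands for a single embryo, and the 3 CB XX lines are numbered here by their order in the table.

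Primitive endoderm is the epithelium that separates from the epiblast on the blastocoel side of the inner cell mass, and it later forms the visceral endoderm around the egg cylinder and the parietal endoderm along the trophectoderm. FGF signaling through the MAP kinase pathway turns on GATA6, which opposes NANOG, and GATA4, SOX17 and SOX7 follow. Mature visceral endoderm takes up and digests maternal nutrients through cubilin, amnionless and megalin, and under HNF4A it secretes serum proteins such as alpha-fetoprotein and transthyretin. ES cells in serum are known to hold small numbers of cells that have begun to turn on such genes.

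Promoter windows of 300 bases, 250 before and 50 after an annotated start, were read for 5 of the 10 markers (7 windows) from RefSeq on GRCm38.p6. Those of *Hnf4a*, *Dab2* and *Afp* are shown because *Hnf4a* stood higher in most XX than XY lines at a very low level, *Dab2* is a known GATA6 target and *Afp* stood near 0, and because GATA and HNF1 factors regulate endoderm genes. Capitals mark a GATA motif (A or T, then GATA, then A or G, on either strand), an HNF1 motif (GTTAAT on either strand, a partial site) or TATAAA on the strand shown. The coordinates are of GRCm38.p6 and all 4 windows lie on the plus strand.
*Hnf4a*, upstream start, chr2:163506607-163506906: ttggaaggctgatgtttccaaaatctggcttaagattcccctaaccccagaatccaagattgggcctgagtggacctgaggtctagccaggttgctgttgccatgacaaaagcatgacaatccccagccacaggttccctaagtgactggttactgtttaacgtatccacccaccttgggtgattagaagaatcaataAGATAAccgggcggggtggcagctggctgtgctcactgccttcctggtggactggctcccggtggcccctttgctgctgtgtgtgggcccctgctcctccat
*Hnf4a*, downstream start, chr2:163546905-163547204: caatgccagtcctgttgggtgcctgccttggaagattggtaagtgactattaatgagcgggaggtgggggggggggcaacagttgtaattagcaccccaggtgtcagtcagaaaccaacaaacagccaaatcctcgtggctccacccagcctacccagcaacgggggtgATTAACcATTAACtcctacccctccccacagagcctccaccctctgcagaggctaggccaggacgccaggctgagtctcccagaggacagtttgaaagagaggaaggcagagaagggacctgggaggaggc
*Dab2*, upstream start, chr15:6299539-6299838: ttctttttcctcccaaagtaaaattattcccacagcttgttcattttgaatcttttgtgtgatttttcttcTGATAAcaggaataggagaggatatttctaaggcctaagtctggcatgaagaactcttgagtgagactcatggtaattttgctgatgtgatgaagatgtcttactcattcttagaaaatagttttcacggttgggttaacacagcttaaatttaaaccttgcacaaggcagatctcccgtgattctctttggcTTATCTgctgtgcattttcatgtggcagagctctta
*Afp*, chr5:90490464-90490763: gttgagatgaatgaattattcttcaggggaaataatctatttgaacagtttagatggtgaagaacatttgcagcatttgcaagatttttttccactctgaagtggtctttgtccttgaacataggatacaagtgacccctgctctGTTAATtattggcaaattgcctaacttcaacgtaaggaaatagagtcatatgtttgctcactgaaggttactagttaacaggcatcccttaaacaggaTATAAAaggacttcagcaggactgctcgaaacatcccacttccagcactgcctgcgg
The upstream *Hnf4a* window held 1 GATA motif and the downstream one 2 HNF1 motifs, the *Dab2* window 2 GATA motifs, and the *Afp* window 1 HNF1 motif and 1 TATAAA. Among the 32851 promoter windows of the same length that were searched, 29.8% held the GATA motif, 7.1% the HNF1 motif and 8.32% TATAAA. The windows searched did not cover every chromosome. The second *Dab2* window, which is not shown, held 1 HNF1 motif and no GATA motif. The *Cubn* and *Amn* windows held none of the 3 motifs. No window was read for *Gata4*, *Gata6*, *Sox7*, *Ttr* or *Lama1*, so their promoters were not examined.

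The values are read numbers scaled by the authors so that the lines are alike in depth, called scaled reads below. The lines summed to between 28150946 and 30657803 scaled reads, and the value steps in the table corresponded to between 11904418 (CB XY 2) and 69646327 (BC XX 2) reads, so that 3 reads were worth 1.22 to 7.37 scaled reads. All 8 pluripotency genes (*Pou5f1*, *Sox2*, *Nanog*, *Zfp42*, *Esrrb*, *Klf4*, *Tdgf1* and *Dppa5a*) reached 10 scaled reads in every line. The BC XX lines stood apart in a list of 24 feeder fibroblast genes, which summed to between 97296 and 207099 scaled reads in them and to between 9073 and 36649 in the other 11 lines. On the mean log2 scale the feeder level was 10.3 to 11.5 in BC XX and at most 9.66 elsewhere. *Uty*, on the Y chromosome, was at 945 to 2088 scaled reads in BC XY and at 1149 in CB XY 1. It was at 19.6 in CB XY 2 and 45.4 in CB XY 3, which are labelled male, and at 12.8 to 195 in the XX lines. Other Y-linked genes separated the BC lines less well or not at all. *Ddx3y* was at 1115 to 2268 in BC XY and at 328 to 1024 in BC XX. *Eif2s3y* overlapped, at 40.8 to 255 in BC XY and 102 to 317 in BC XX. *Kdm5d* was higher in BC XX, at 36.9 to 123 against 6.02 to 28.7 in BC XY. Calls and the larger differences that rest on CB XY 2 and CB XY 3 are also given without them. The CB XY group then holds CB XY 1 alone. Its differences from CB XX and from BC XY, and the interaction, are then given as sizes only.

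Of the 10 markers, 8 were carried by enough reads to be tested, and *Afp* and *Ttr* were not. Per kilobase of exon, and averaged over the 14 lines, *Lama1* stood at 564 scaled reads, followed by *Gata4* at 48.0, *Dab2* at 41.3, *Sox7* at 35.5 and *Gata6* at 34.1. *Amn* was at 9.50, *Cubn* at 4.99, *Hnf4a* at 3.08, *Ttr* at 1.68 and *Afp* at 1.02. The early regulators and the adaptor *Dab2* were thus present at a low level and the serum protein genes *Afp* and *Ttr* were at or near 0. In bulk RNA, few cells with a high level and many cells with a low level cannot be told apart. The spread between lines was widest for *Gata4* (SD over 14 lines of 1.35 on the log2 scale), *Gata6* (1.20) and *Hnf4a* (1.06) and, of the 8 markers tested, narrowest for *Cubn* (0.52).

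**Figure D1:**
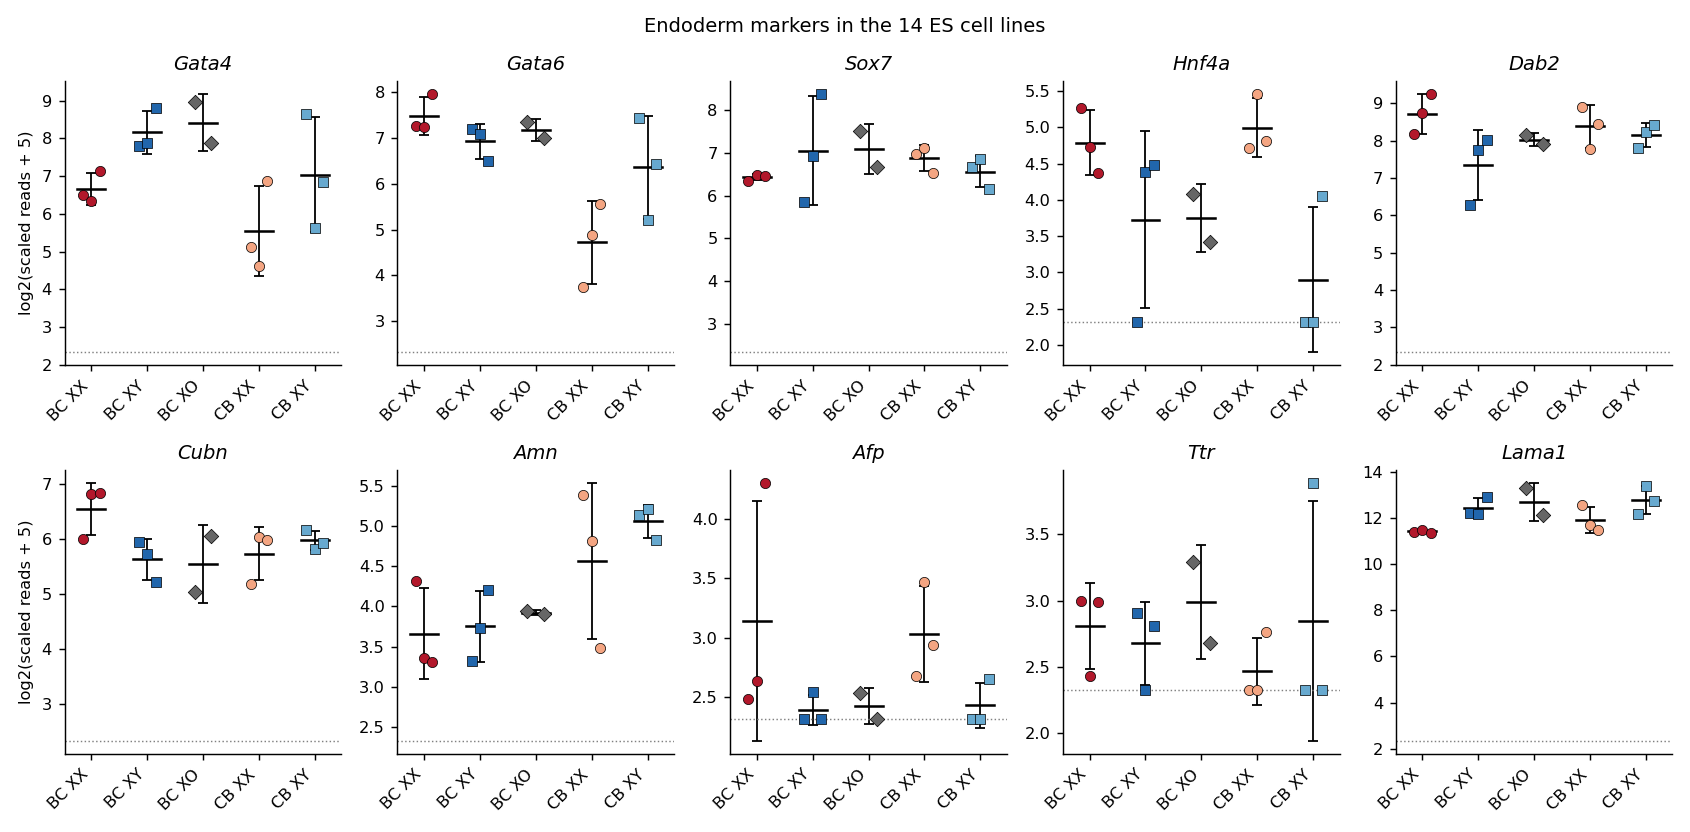
Level of the 10 endoderm markers in each of the 14 ES cell lines as log2(scaled reads + 5), each panel with its own axis. Points are lines, bars the group mean and SD (n = 3, and n = 2 for BC XO), and the dotted line is the value of a gene at 0; *Lama1* lies far above this line and *Afp* and *Ttr* close to it.

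*Gata4* (mm9 chr14:63817759-63890529, minus strand) encodes a zinc finger factor that drives primitive endoderm genes. It was at 216, 230 and 446 scaled reads in the BC XY lines, at 85.7, 75.7 and 136 in the BC XX lines and at 491 and 230 in the BC XO lines. In the CB cross it was at 398, 44.2 and 109 in the XY lines and at 29.8, 19.5 and 113 in the XX lines. The BC XX values lay below all 5 other BC lines, whereas the CB ranges overlapped. Over 12 lines the mean was 76.5 ± 45.4 scaled reads in XX and 241 ± 157 in XY (SD, n = 6 each), a log2 fold change of -1.50 (95% CI -2.69 to -0.31) that did not pass the test (limma, Benjamini-Hochberg adjusted p = 0.128). The log2 fold change was also -1.50 within each cross, with adjusted p = 0.200 in BC and 0.251 in CB by limma. With CB XY 1 as the only CB XY line it was -3.11 in CB. Without CB XY 2 and CB XY 3 it was -2.19 over 10 lines, with an adjusted p of 0.0398 by limma, and in the model of 5 groups the difference of -1.50 also passed (adjusted p = 0.0498). In 7 other alternatives it did not pass (limma, adjusted p from 0.0541 to 0.279). It passed in none of 12 fits that left out a line (limma, adjusted p from 0.0540 to 0.243).

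*Gata6* (mm9 chr18:11052508-11085633, plus strand) encodes the factor that starts the primitive endoderm program. It was at 148, 145 and 243 scaled reads in the BC XX lines, at 140, 131 and 85.0 in the BC XY lines and at 157 and 123 in the BC XO lines. In the CB cross it was at 168, 31.9 and 80.5 in the XY lines and at 8.53, 24.4 and 41.8 in the XX lines. The 3 CB XX lines were below every BC line, with 6, 20 and 47 reads behind their values. *Gata6* fell by 2.75 on the log2 scale in CB XX against BC XX (95% CI -3.84 to -1.66, limma, Benjamini-Hochberg adjusted p = 0.00997), in a comparison that called 7.15% of 16261 genes tested. The call was lost without BC XX 3 (adjusted p = 0.0712) and without CB XX 1 (0.0576), both by limma. With the feeder fibroblast level as a covariate the difference was -1.21 (adjusted p = 0.577), and since all BC XX lines exceeded all CB XX lines in that level the 2 cannot be told apart.

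*Gata6* was 1 of the 8 markers tested and the only one called between BC XX and CB XX, where *Gata4* was lower by 1.12 on the log2 scale without passing the test (adjusted p = 0.308). XX and XY lines of the CB cross differed by -1.62 in *Gata6* (adjusted p = 0.101) and those of the BC cross by 0.56 (adjusted p = 0.549). The CB difference was -2.20 without CB XY 2, the only 1 of 14 fits leaving out a line that passed (limma, adjusted p = 0.0407). It was -1.08 without CB XY 1 (limma, adjusted p = 0.342) and -2.70 with CB XY 1 as the only CB XY line. The difference between these differences was -2.18 (95% CI -3.73 to -0.64), which did not pass the test either (limma, adjusted p = 0.358). With CB XY 1 as the only CB XY line it was -3.26. That interaction called 0 of the 8 markers and 0.0738% of all genes. At an unadjusted p under 0.05 were 2 of the 8 markers and 1471 of all 16261 genes tested. Over 12 lines *Gata6* averaged 102 ± 91.7 scaled reads in XX and 106 ± 49.2 in XY (SD, n = 6 each, limma, adjusted p = 0.646).

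Lines with more *Gata4* tended to have more *Gata6*, a relation that did not hold within the BC cross. Over the 14 lines Pearson's r was 0.71 (permutation p = 0.00417) and Spearman's rho was 0.57 (permutation p = 0.0342), with adjusted p of 0.0751 and 0.307 over 36 relations computed. Among the 6 CB lines r was 0.89, and among the 8 BC lines it was -0.44. With each group's mean taken out, r was 0.73 (permutation within groups, p = 0.0884, adjusted p = 0.233). Without BC XO 1 and CB XX 2, the lines farthest from the median *Gata4* level, r was 0.64 (permutation p = 0.024). Without CB XY 2 and CB XY 3, a choice made after seeing the data, r was 0.68 (permutation p = 0.0149) and rho was 0.42 (permutation p = 0.178). In CB XY 1, *Gata4* at 398 and *Gata6* at 168 were the highest values of the cross, and CB XX 1 and CB XX 2 were the 2 lowest of all 14 lines in both genes.

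**Figure D2:**
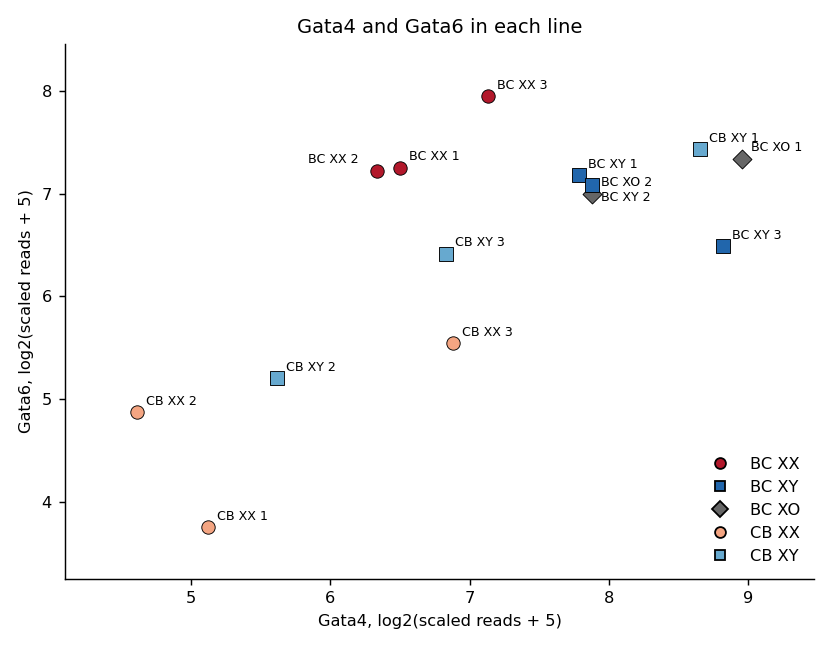
*Gata6* against *Gata4* in each of the 14 lines, both as log2(scaled reads + 5), with each point named and colored by group. The 6 CB lines run from low to high in both genes (r = 0.89), while the BC XX lines are the lowest of the BC lines in *Gata4* and sit at high *Gata6*.

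For each marker tested, the 3 genes with the highest r over the 14 lines were picked from all other genes. Such a pick gives high r by itself, and these correlations were not tested. With *Gata4*, the highest correlations over 14 lines among 16260 other genes were those of *Klhl6* (r = 0.956), *Adamts3* (0.944) and *Prdm6* (0.943). With *Gata6* they were those of *Gabra5* (r = 0.979), *Cadps2* (0.960) and *Lhx1* (0.960). *Lhx1*, a homeobox gene of the anterior visceral endoderm and of mesendoderm, was at 2.84, 3.66 and 67.5 scaled reads in the CB XX lines and at 198 to 325 in the BC XX lines. It was picked for its match with *Gata6* over these same lines, so its values add no separate support.

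*Sox7* (mm9 chr14:64562511-64569569, plus strand), an SRY-box factor of primitive and parietal endoderm, was at 76.8, 85.1 and 83.5 scaled reads in BC XX, at 52.5, 118 and 330 in BC XY, and at 177 and 97.5 in BC XO. The CB lines were at 121, 134 and 88.0 in XX and at 96.9, 111 and 66.2 in XY. The XX and XY ranges overlapped in both crosses, and the highest value, 330 in BC XY 3, belonged to the XY line that also had the highest *Gata4* of its group. The log2 fold change of XX against XY was -0.15 (95% CI -0.90 to 0.59, limma, Benjamini-Hochberg adjusted p = 0.826). *Padi2* (r = 0.898), *Plagl2* (0.884) and *Spry4* (0.880) followed *Sox7* most closely over the 14 lines.

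*Hnf4a* (mm9 chr2:163332544-163398646, plus strand), the nuclear receptor that maintains visceral endoderm secretion, was at a very low level. It was at 33.3, 21.6 and 15.7 scaled reads in the BC XX lines and at 21.3, 39.0 and 23.1 in the CB XX lines, from 15 to 56 reads per line. In BC XY it was at 0, 15.8 and 17.4, in CB XY at 0, 0 and 11.7, and in BC XO at 11.96 and 5.69. The XX lines averaged 25.7 ± 8.69 scaled reads and the XY lines 7.48 ± 8.40 (SD, n = 6 each), with 5 of the 6 XX lines above every XY line. The log2 fold change of XX against XY was 1.58 (95% CI 0.67 to 2.49, limma, Benjamini-Hochberg adjusted p = 0.0467), in a comparison that called 3.21% of 15311 genes tested as higher in XX. The gene reached 10 scaled reads in all 6 XX lines and in 3 XY lines and so entered the fit through the XX lines, for which reason the call is given as a description. With no filter on low values the adjusted p was 0.065 by limma. With 3 lines at 0 the size of this difference depended on the constant added before the log, and with 1 in place of 5 it was 2.69 (adjusted p = 0.0673).

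The *Hnf4a* call depended on which lines were included. It was lost in 8 of 12 fits that left out a line, namely BC XX 1, BC XX 2, BC XX 3, BC XY 1, CB XX 2, CB XX 3, CB XY 1 or CB XY 2, with limma adjusted p from 0.0529 to 0.105, and the log2 fold change stayed between 1.38 and 1.81. Without CB XY 2 and CB XY 3 it was 1.52 (adjusted p = 0.118), and with the feeder level as a covariate 1.83 (adjusted p = 0.0912). The XY lines listed at 0 came from 24117687 (BC XY 1), 14661095 (CB XY 1) and 11904418 (CB XY 2) reads, for which 3 reads are worth 3.75, 6.06 and 7.37 scaled reads. The difference was 1.06 in BC (adjusted p = 0.288) and 2.10 in CB (adjusted p = 0.0583) by limma. The CB difference passed without BC XY 1 (adjusted p = 0.0217) or without CB XY 3 (adjusted p = 0.0243), and was 2.67 with CB XY 1 as the only CB XY line. *Cbln4* (r = 0.903), *Gnl2* (0.903) and *4930506M07Rik* (0.889) followed *Hnf4a* most closely over the 14 lines.

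*Dab2* (mm9 chr15:6249788-6390712, plus strand), the endocytic adaptor that binds megalin, was at 283, 420 and 602 scaled reads in BC XX, at 72.4, 211 and 254 in BC XY, and at 279 and 235 in BC XO. In the CB cross it was at 475, 214 and 347 in XX and at 220, 295 and 338 in XY. All 3 BC XX lines were above the other 5 BC lines, and the CB ranges overlapped. The difference was 1.37 on the log2 scale in BC (95% CI 0.47 to 2.26, adjusted p = 0.0711) and 0.23 in CB (95% CI -0.67 to 1.12, adjusted p = 0.816), neither of which passed the limma test. The interaction was -1.14 (adjusted p = 0.611). With CB XY 1 as the only CB XY line the CB difference was 0.57 and the interaction -0.80. The feeder level was higher in the BC XX lines as well, and with it as a covariate the BC difference was 2.23 (adjusted p = 0.302). *Map1a* (r = 0.909), *Nt5dc3* (0.883) and *Nf1* (0.879) followed *Dab2* most closely.

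*Cubn* and *Amn* encode the subunits of the receptor for intrinsic factor and vitamin B12, cubilin and amnionless. *Cubn* (mm9 chr2:13197965-13413551, minus strand) was at 58.9, 107 and 109 scaled reads in BC XX, at 56.2, 48.2 and 32.1 in BC XY, at 27.9 and 61.2 in BC XO, at 31.3, 60.9 and 57.8 in CB XX and at 66.6, 51.6 and 55.8 in CB XY. It was highest in BC XX 2 and BC XX 3, while BC XX 1 lay within the range of the others. The difference between BC XX and BC XY was 0.92 on the log2 scale (95% CI 0.17 to 1.67, limma, adjusted p = 0.136). The genes most like *Cubn* over the 14 lines were *Snai2* (r = 0.886), *Anks1b* (0.876) and *Mecom* (0.868).

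*Amn* (mm9 chr12:112509322-112514637, plus strand) was at 14.9, 5.29 and 4.91 scaled reads in BC XX, at 5.00, 8.31 and 13.4 in BC XY and at 10.4 and 9.96 in BC XO. It was at 37.0, 23.2 and 6.22 in CB XX and at 30.3, 31.9 and 23.4 in CB XY, from 4 to 26 reads per line. All 3 CB XY lines were above all BC lines. CB XY exceeded BC XY by 1.31 on the log2 scale (95% CI 0.38 to 2.23), which did not pass the limma test (adjusted p = 0.131). With CB XY 1 as the only CB XY line the difference was 1.39. By group mean *Cubn* was highest in BC XX (6.55 ± 0.48 on the log2 scale, SD, n = 3) and *Amn* lowest there (3.66 ± 0.56), though neighboring groups overlapped in both genes. The genes most like *Amn* were *D330050I16Rik* (r = 0.951), *Atp13a2* (0.942) and *Thap7* (0.939).

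*Lama1* (mm9 chr17:68046605-68171985, plus strand), the laminin alpha chain of the first embryonic basement membrane, was lower in XX lines. It was at 2694, 2899 and 2652 scaled reads in BC XX, at 4857, 4705 and 7879 in BC XY and at 10106 and 4491 in BC XO. It was at 6106, 3364 and 2886 in CB XX and at 4649, 10954 and 6884 in CB XY. Of the 6 XX lines 5 were below every XY line, and CB XX 1 was the exception. The XX mean was 3434 ± 1333 scaled reads and the XY mean 6655 ± 2494 (SD, n = 6 each). *Lama1* fell by 0.95 on the log2 scale in XX against XY (95% CI -1.47 to -0.42, limma, Benjamini-Hochberg adjusted p = 0.0392), where 1.99% of all genes tested were called lower.

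The *Lama1* call was lost in 8 of 12 fits that left out a line, namely BC XX 1, BC XX 2, BC XX 3, BC XY 3, CB XX 2, CB XX 3, CB XY 2 or CB XY 3, with limma adjusted p from 0.0685 to 0.0936 and log2 fold changes of -0.95 to -0.79. Without both CB XY 2 and CB XY 3 it was -0.72 (adjusted p = 0.160). With the feeder level as a covariate it was -0.45 (adjusted p = 0.414), and within BC the sign turned, from -1.04 to 0.30 (adjusted p = 0.907). The differences within the crosses, -1.04 in BC (adjusted p = 0.0996) and -0.85 in CB (adjusted p = 0.210), did not pass the limma test. With CB XY 1 as the only CB XY line the CB difference was -0.25. BC XX against BC XO gave -1.29 (adjusted p = 0.072). *Sh2d4b* (r = 0.933), *Abcc3* (0.919) and *Cbs* (0.917) followed *Lama1* most closely.

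*Afp* and *Ttr*, the serum proteins that define mature visceral endoderm, were not measurable in most lines. *Afp* (mm9 chr5:90919740-90937933, plus strand) exceeded 3 reads in 2 of 14 lines, with 15 reads in BC XX 3 (14.7 scaled reads) and 5 in CB XX 2 (6.09). Its remaining values were 1.42 and 2.67 scaled reads in the other CB XX lines, 0.60 and 1.22 in the other BC XX lines, and 0 to 1.30 in the XY and XO lines. *Ttr* (mm9 chr18:20823751-20832825, plus strand) exceeded 3 reads in 3 lines, with 6 reads in BC XO 1, 5 in BC XX 1 and 4 in CB XY 2. The mean log2 level of *Afp* was 0.67 higher in XX than in XY lines (exact permutation test, two-sided, p = 0.013), and that of *Ttr* was 0.12 lower (exact p = 0.773). All 6 XY lines and 4 of 6 XX lines held at most 3 *Afp* reads, so neither gene is read as changed.

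**Figure D3:**
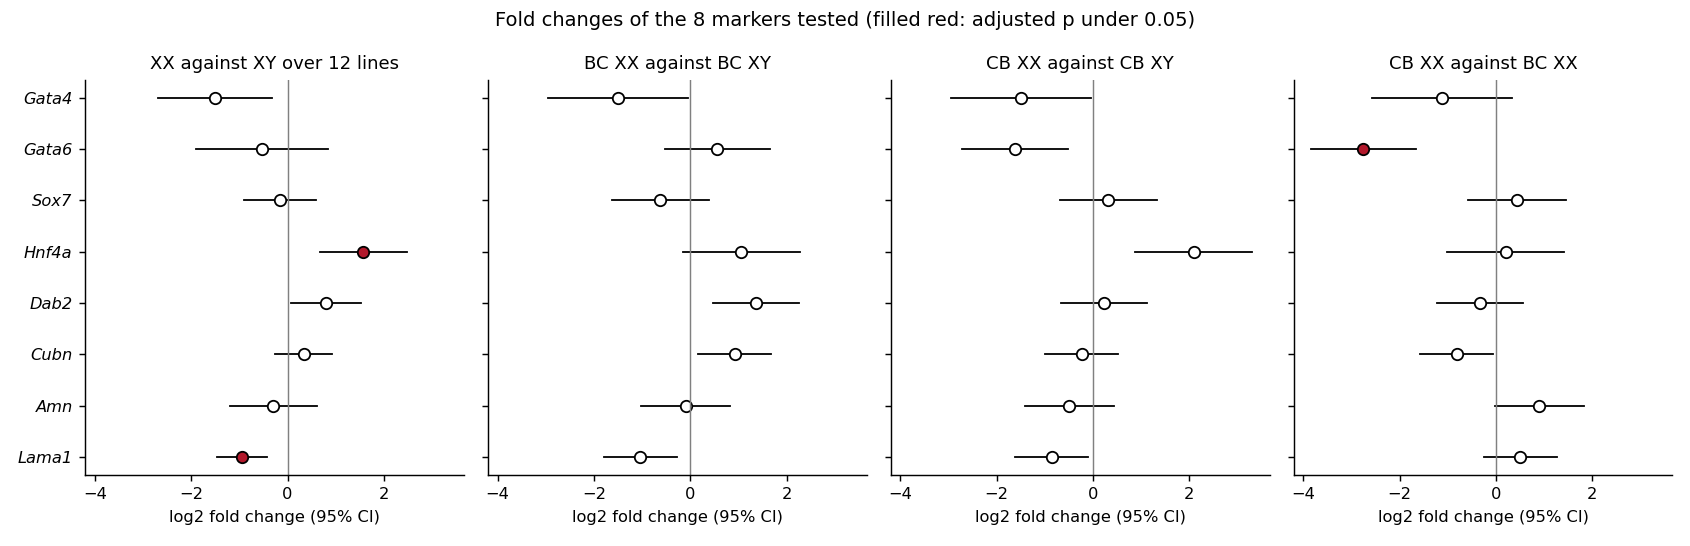
Log2 fold changes of the 8 markers tested, with 95% confidence intervals, in XX against XY over 12 lines, within the BC and the CB cross, and in CB XX against BC XX; filled red points passed the test. *Hnf4a* and *Lama1* passed in the first panel, *Gata6* in the last, and no marker in the 2 within-cross panels.

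Of the 8 markers tested, 2 passed in XX against XY over 12 lines, *Hnf4a* upward, after entering through the XX lines, and *Lama1* downward, where 5.21% of all genes did. Their median log2 fold change was -0.22, against -0.03 over all genes. Within BC (5.7% of all genes called), within CB (3.57%) and in BC XX against BC XO (4.66%) limma called 0 of 8. At an unadjusted p under 0.05 were 4, 4 and 3 of the 8, and 3749, 3032 and 3851 of all 16261 genes tested. BC XO against BC XY called 0 of 8 by limma, where 0.00615% of all genes were called. There 0 of the 8 and 242 of all 16261 genes were at an unadjusted p under 0.05. The widest interval in that comparison, that of *Gata4*, ran from -1.36 to 1.87 on the log2 scale. CB XY against BC XY called 0 of 8, where 0.64% of all genes were called. There 1 of the 8 (*Amn*) and 3042 of all 16261 genes were at an unadjusted p under 0.05. These comparisons share lines, and the counts are not independent of each other.

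The feeder fibroblast level was set beside each marker. Since the BC XX lines stood apart in it, relations were computed over the other 11 lines, a choice made after seeing the data. *Lama1* was lower where the level was higher, with r = -0.64 (permutation p = 0.0375) and rho = -0.71 (permutation p = 0.0192), and *Cubn* was higher, with r = 0.58 (permutation p = 0.058) and rho = 0.67 (permutation p = 0.0285). Neither passed over the 36 relations (adjusted p for r of 0.270 and 0.314), and without BC XY 3 and CB XY 2 the *Lama1* r was -0.39. *Cubn* and *Lama1* went in opposite directions over all 14 lines (r = -0.73, permutation p = 0.0029, adjusted p = 0.0751, and rho = -0.79, permutation p = 0.00125, adjusted p = 0.045). With each group's mean taken out, r was -0.77 (permutation within groups, p = 0.00925, adjusted p = 0.167). The relation of *Cubn* and *Lama1* was seen in the BC lines (r = -0.90, n = 8) and was weaker in the CB lines (r = -0.35, n = 6). Its r was -0.58 without BC XX 3 and BC XO 1 (permutation p = 0.0454, adjusted p = 0.530). Without CB XY 2 and CB XY 3 it was -0.85 (permutation p = 0.00071, n = 12), and the feeder level gave r = -0.64 with *Lama1* (permutation p = 0.0661) and 0.68 with *Cubn* (permutation p = 0.0367, n = 9).

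**Figure D4:**
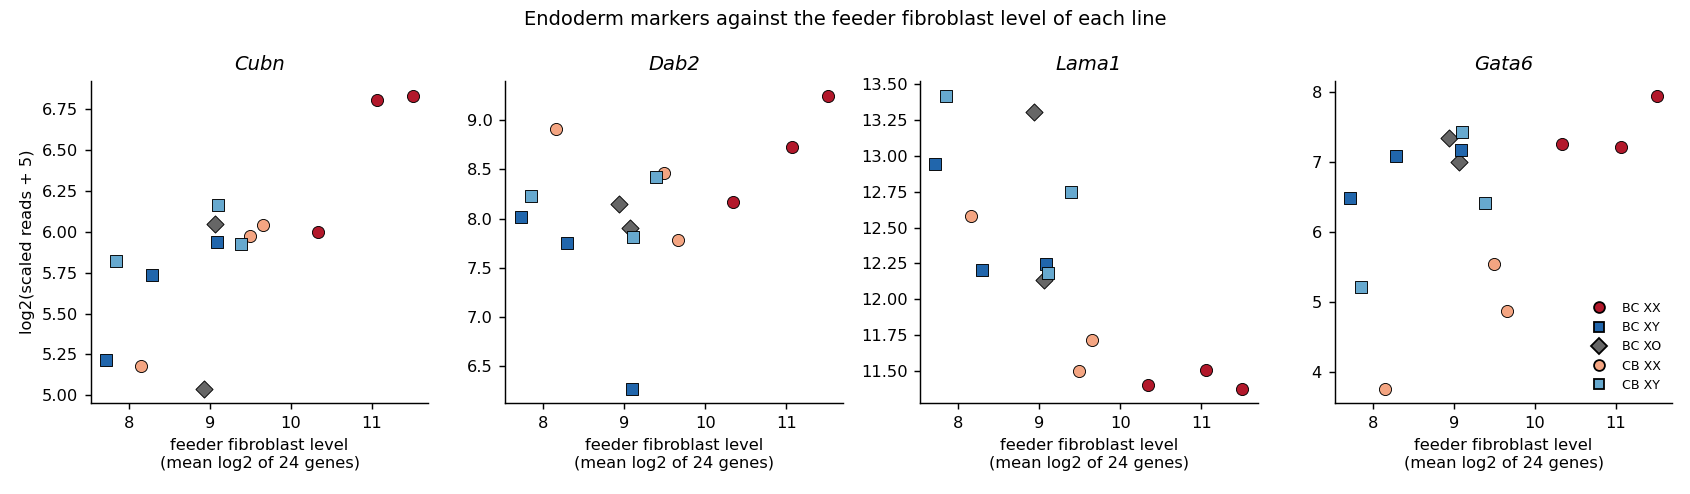
Level of *Cubn*, *Dab2*, *Lama1* and *Gata6* (log2(scaled reads + 5)) against the feeder fibroblast level, the mean log2 of 24 fibroblast genes, in each of the 14 lines colored by group. The 3 BC XX lines lie to the right of the other 11 in every panel, and their *Lama1* levels are among the lowest.

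A wider list of 49 endoderm genes placed these markers in the rest of the program. In CB XX against BC XX, 15 of 45 tested were lower and 0 higher, where 4.25% of all genes were called lower, and the median log2 fold change of the list was -0.43 against 0.01 over all genes. The 5 that fell most were *Cer1* (by 4.75 on the log2 scale, limma, adjusted p = 0.004), *Spink3* (4.06), *Dkk1* (2.50), *Foxa2* (2.40) and *Krt8* (2.37). *Cer1* encodes a NODAL antagonist of the anterior visceral endoderm, *Spink3* a secreted protease inhibitor and *Dkk1* a WNT antagonist. *Foxa2* encodes a forkhead factor of endoderm and *Krt8* an epithelial keratin. *Cer1* was at 324, 341 and 655 scaled reads in BC XX and at 9.95, 1.22 and 36.4 in CB XX, and *Foxa2* at 136, 91.6 and 113 against 14.2, 8.53 and 37.3. By role, 3 of 6 transcription factors were lower, as were 4 of 7 basement membrane genes, 2 of 3 anterior visceral endoderm genes, 2 of 3 keratins, 2 of 10 secreted proteins, 1 of 3 endocytosis genes and 1 of 6 parietal endoderm genes (*Plat*), and neither of the 2 signaling genes was called. None of the 5 FGF and PDGF genes was called, *Pdgfra* differing by 1.26 (adjusted p = 0.186).

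Several of these 15 genes are also made outside extraembryonic endoderm, and 2 other lists moved in the same comparison. Of 24 feeder fibroblast genes 13 were lower in CB XX than in BC XX, where 4.25% of all genes were called lower. Of 8 genes of primitive streak and definitive endoderm 3 were lower (*Foxa2*, *Sox17* and *T*). *Foxa2* and *Sox17* are also in the wider list and are counted among the 15, so only *T* is a further call. The list of 8 summed to 625.4 to 1260 scaled reads in CB XX against 1817 to 2864 in BC XX and 1221 to 5259 in CB XY. Their part in the *Gata6* difference was not tested. With the feeder level as a covariate 1 gene of the list was called, and the list held 6, 5, 5 and 7 calls without BC XX 2, BC XX 3, CB XX 1 and CB XX 2.

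**Figure D5:**
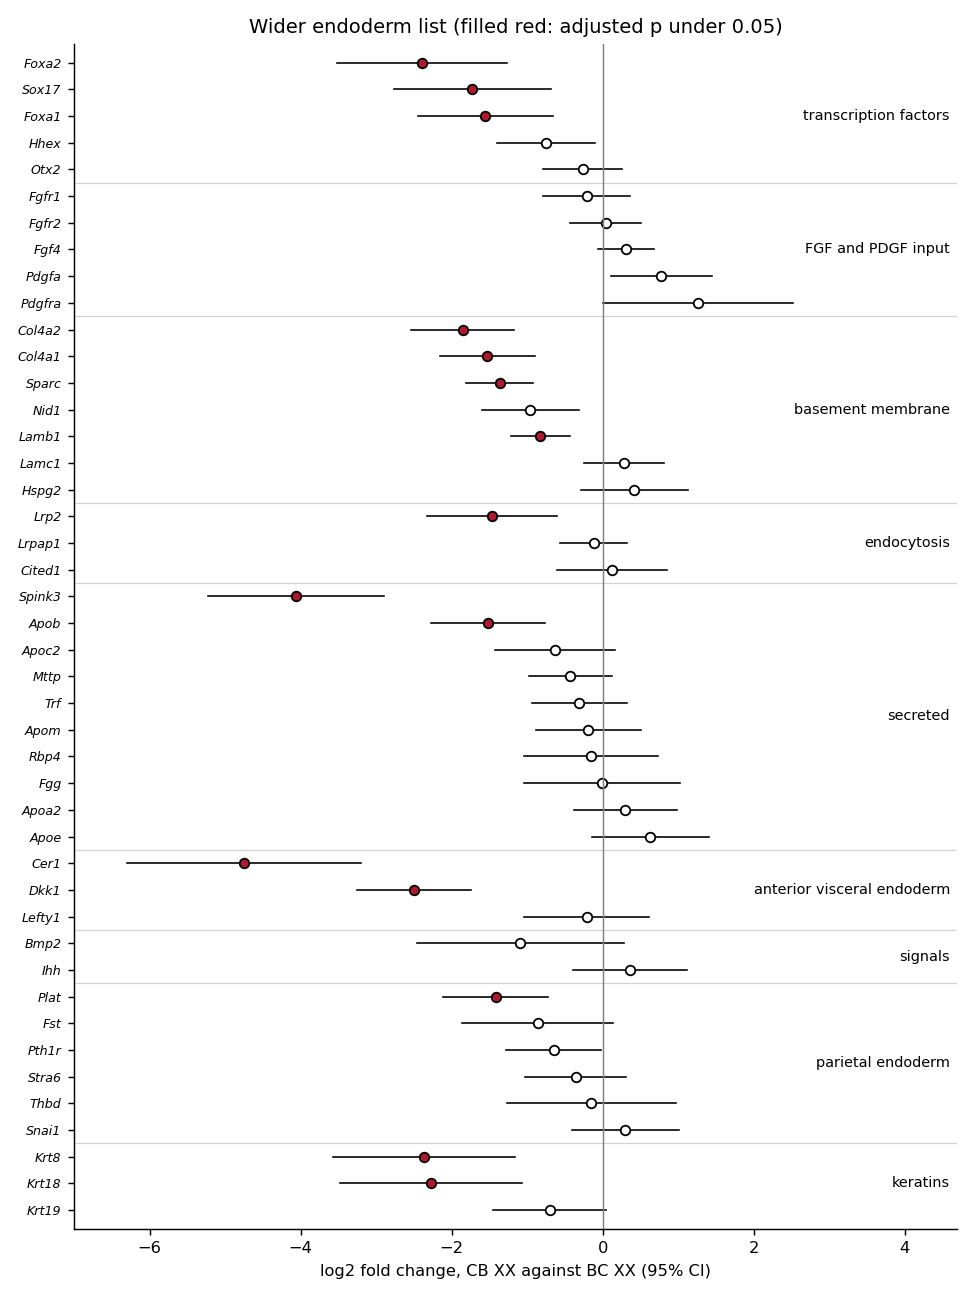
Log2 fold changes with 95% confidence intervals in CB XX against BC XX for 44 of the 45 genes of the wider endoderm list that were tested, ordered by role. Filled red points passed the test, and all 15 of them lie left of 0, with *Cer1* and *Spink3* farthest out.

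In XX against XY over 12 lines the wider list held 3 higher and 1 lower of 42 tested, where 5.21% of all genes were called, with a median log2 fold change of -0.09. Of the feeder fibroblast genes 1 of 23 was called higher, with a median of 1.27. At an unadjusted p under 0.05 were 16 of the 23, and 3544 of all 15311 genes tested. *Plat* (1.33), *Sparc* (1.19) and *Apom* (1.11) were higher and *Apoa2* fell by 1.10 (limma, adjusted p = 0.0161). The list held 2 calls without BC XX 1, BC XX 2, BC XY 2, CB XY 1 or CB XY 2, 8 without CB XX 1, 11 in the model of 5 groups and 1 (*Apom*) without both CB XY 2 and CB XY 3. *Plat* and *Sparc*, made by parietal endoderm, are also known from fibroblasts. In BC XX against BC XY 6 of 45 were called, all higher, where 5.7% of all genes were called and 17 of 24 feeder fibroblast genes were higher. The 6 were led by *Plat* (2.18), *Col4a2* (2.02), *Sparc* (1.82), *Col4a1* (1.72) and *Apom* (1.34), and with the feeder level as a covariate 1 was called. In CB XX against CB XY 2 of 45 were called, near the 3.57% over all genes, and both were lower, *Foxa2* by 2.14 (limma, adjusted p = 0.0383) and *Lamb1*, a laminin beta chain, by 0.86 (adjusted p = 0.021). Of the 8 primitive streak and definitive endoderm genes 2 were lower there (*T* and again *Foxa2*, which is in both lists), with a median of -1.81. At an unadjusted p under 0.05 were 5 of these 8, and 3032 of all 16261 genes tested. The *Foxa2* and *Gata4* values of the CB cross were both highest in CB XY 1. The list held 0 calls without CB XX 2 or CB XY 1, 1 without BC XX 2, BC XY 2, BC XO 1, BC XO 2, CB XY 2 or CB XY 3, and 6 without CB XX 3. With CB XY 1 as the only CB XY line the difference was -3.07 in *Foxa2* and -0.82 in *Lamb1*.

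In BC XX against BC XO 6 of 45 were higher and 1 lower, where 4.66% of all genes were called. Of the 24 feeder fibroblast genes 10 were higher, with a median of 1.82. At an unadjusted p under 0.05 were 17 of the 24, and 3851 of all 16261 genes tested. Across 7 alternative settings, the feeder level as a covariate among them, the wider list held 1 to 7 calls. What part feeder RNA had in the differences of the list was not tested further. *Plat* (2.02), *Sparc* (1.58), *Col4a2* (1.48) and *Apom* (1.39) were among the higher and *Cited1* fell by 1.54 (limma, adjusted p = 0.039). The list held 0 calls without BC XO 1 or BC XO 2, 1 without BC XX 3, 2 without BC XX 2, 3 without BC XY 2 and 4 without CB XY 3. BC XO against BC XY called 0 of 45, with 1 at an unadjusted p under 0.05, against 242 of all 16261 genes. CB XY against BC XY called *Spink3* alone, lower by 2.57 (limma, adjusted p = 0.0487). The interaction called 0 of 45, with 12 at an unadjusted p under 0.05, against 1471 of all 16261 genes. The *Spink3* call was lost in 11 of 14 fits that left out a line, and the list held 3 calls without CB XX 3. With CB XY 1 as the only CB XY line the *Spink3* difference was -2.20.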

How the data were processed

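RNA from 14 lines was sequenced once each (stranded total RNA libraries, single-end reads). Per the methods and the submitters' processing notes, the authors aligned reads to mm9 with TopHat2 and used Cuffdiff. The deposited table holds 1 scaled read signal per gene and line, and 96.8% to 98.6% of the values per line were whole multiples of a step (tolerance 0.05), taken as 1 read. How the scaling was done, the strand setting and which lines shared a library batch are not given in the sources used here. *Gata6*, *Cubn* and *Ttr* share exonic bases with opposite-strand RNAs, from which their reads may not be separable.

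The 10 markers and all gene lists were chosen with earlier results of these data known. Groups came from the sample labels. Values were tested as log2(value + 5) with limma 3.58.1 in R 4.3.3 (trended empirical Bayes, Benjamini-Hochberg over all genes tested, FDR 0.05). XX and XY were compared over 12 lines (genes at 10 or more in at least 6 lines) and the other comparisons in a model of 5 groups (at least 2 lines). Genes listed at 0 in all lines of a group and reaching 100 elsewhere were left out. P-values of these fits set a difference between group means against the spread between lines. Correlations were tested with 100000 permutations. The script was tested on simulated data. Confidence intervals are 95%. Exonic lengths and mm9 coordinates came from GENCODE annotation, matched by symbol. Named were the 10 markers, up to 5 called genes of the wider list by size of change, and the 3 genes most correlated with a marker. Replicate numbers name independent lines and did not pair them. The correlation of deviations between same-numbered lines was -0.22 to 0.27 among XX and XY lines. In pairs with a BC XO line it was -0.49 to 0.13. The alternatives were another scaling, pseudocount and filter, the feeder level or cross as covariate, the replicate block, and leaving out lines. Counting intervals and the 3-read floor cover counting error only. The values of 1 gene of the wider list are not reported here.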

Additional observations from a re-analysis of the deposited data

Results flagged for a closer look

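Among the 20 sets of 6 XX or 6 XY lines checked, 3 held a line far from the others on the log2 scale, and chance alone gives about 1 in 20. *Dab2* was at 72.4 scaled reads in BC XY 1, against 211 to 338 in the other XY lines. *Lama1* was at 6106 in CB XX 1, against 2652 to 3364 in the other XX lines, and that line had the lowest feeder fibroblast level of the XX lines (8.15 on the mean log2 scale). *Ttr* was at 9.82 in the line labelled CB XY 2, from 4 reads, against 0 to 2.50 in the other XY lines.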

How the results depend on the processing

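Of 447 recomputed fold changes for 22 marker results, 409 kept direction and side of the threshold, 27 lost and 9 gained a call, and 2 reversed: *Lama1* in BC XX against BC XY with the feeder level as a covariate (0.30) and *Gata4* in CB XY against BC XY without CB XY 2 and CB XY 3 (0.49). In XX against XY, 2 markers were called, and 1 with a pseudocount of 1, 0 with no filter (more genes tested), 1 with a mean value of at least 50 (*Hnf4a* is then not tested), 1 with the feeder level as a covariate (*Gata6*), 1 without CB XY 2 and CB XY 3 (*Gata4*), 3 in the model of 5 groups, and 0 to 2 when a line was left out. With the replicate block, which left out the CB XX lines, 1 was called in XX against XY (*Lama1*; *Hnf4a* had adjusted p = 0.101) and 1 in BC XX against BC XY (*Dab2*, adjusted p = 0.0277). With the feeder covariate 1 was called in CB XX against CB XY (*Gata6*, adjusted p = 0.0104), 0 in CB XX against BC XX and 1 in CB XY against BC XY (*Amn*, adjusted p = 0.0255). Leaving out a line gave 0 to 1 calls in CB XX against CB XY, 0 to 1 in BC XX against BC XO (*Lama1* without CB XX 1) and 0 to 2 in CB XX against BC XX, and 0 throughout in the others. The cause was not tested. Over all genes, leaving out a line moved the calls to between 387 and 1709 in XX against XY (797), 230 and 1144 in BC XX against BC XY (927), 141 and 653 in CB XX against CB XY (581), 5 and 1093 in BC XX against BC XO (758), 120 and 2576 in CB XX against BC XX (1162), 2 and 422 in CB XY against BC XY (104), 0 and 2 in BC XO against BC XY (1), and 0 and 25 in the interaction (12). No paired analysis was possible for comparisons with CB XX because their column numbers could not be matched to the line numbers in the labels. The block used line numbers that did not pair the lines (2, 2 and 3 of 6 lines correlated best with their own number, BC XO lines not counted). The planned count test on recovered reads was not run because the table also holds fractional values below 1 read. Few reads limit *Hnf4a*, *Amn*, *Afp* and *Ttr*, which had 0 to 56 reads per line.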

Other observations

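*Klhl6*, among the genes most correlated with *Gata4*, was at 86.8, 4.91 and 24.7 scaled reads in the CB XY lines and at 1.42, 1.22 and 19.5 in the CB XX lines, and *Prdm6*, another of them, was at 54.5, 14.7 and 23.4 in CB XY and at 2.84, 4.87 and 15.1 in CB XX. *Eomes*, a T-box gene of primitive streak and trophoblast, was at 1876, 413 and 1138 scaled reads in the CB XY lines and at 247, 440 and 480 in the CB XX lines. Of the fibrinogen chains, *Fga* and *Fgb* were at 0 to 4.87 scaled reads over the 14 lines and *Fgg* at 5.69 to 52.9, highest in BC XY 3. These values were picked after they were seen and were not tested.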
